A study of Mus musculus with 12 samples.

Results

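The 10 genes described here encode ligands, receptors, a co-receptor and an inhibitor of TGF-beta and activin signaling, and their mRNA was measured in mouse colon. They were chosen by symbol: the ligands Tgfb1, Tgfb2, Tgfb3, Inhba and Inhbb, the receptors Tgfbr1, Tgfbr2 and Acvr1c, the co-receptor Rgmb and the inhibitor Smad7. The choice was made with earlier results of these data known. Each count file lists 54532 genes, and all 10 were among the 17658 that had enough counts to be tested. RNA-seq libraries were made from colon tissue of male C57BL/6 mice, supplied at 6 weeks of age and kept for a week before the experiment, with 3 mice sequenced in each of 4 groups. Con mice received the vehicle by gavage according to the study's methods, while the sample labels call them untreated. DSS mice drank 3% (w/v) dextran sulfate sodium, a polymer that injures the colon epithelium and causes colitis, for 5 days and received the vehicle by gavage. UA+DSS mice drank the same DSS and received 200 mg/kg ursolic acid (UA, a triterpenoid found in plants) by daily gavage for 7 days, beginning 1 day before DSS. DSS+UA mice received the same dose for 4 days, beginning 3 days after DSS began. The methods and the discussion of the study give different lengths of the UA courses, and the lengths given here are those of the methods.

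TGF-beta ligands are secreted in a latent complex and, once released, bring together the type II receptor TGFBR2 and the type I receptor TGFBR1, which phosphorylates SMAD2 and SMAD3. Activins are dimers of inhibin beta chains and use type II receptors of their own, with ALK4 or ALK7 as the type I receptor. In the intestine the pathway is known for restraining immune responses, for epithelial restitution and for the deposition of matrix by fibroblasts, and SMAD7 holds it back by binding the type I receptor.

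Total counts were 15566216 to 19498383 per library (median 18569669.5), and values below are CPM (counts scaled to a common library size) after TMM scaling with factors of 0.871 to 1.09. DSS 2 stands for replicate 2 of the DSS group, and so on. All 8 colonocyte markers, among them Epcam, Krt20 and Car1, had counts in every library. Libraries stood apart in several ways. The summed markers of pancreatic acinar cells reached 12645 CPM in DSS 3, against 30.6 to 553 CPM elsewhere, and those of neutrophils reached 17907 CPM in DSS 2, against 884 and 977 CPM in the other DSS libraries. Hox genes mark position along the gut, and a position score was taken as the difference in mean log2 CPM between 5 rectal-side genes (Hoxb13, Hoxd10, Hoxd11, Hoxd12, Hoxd13) and 6 caecal-side ones (Hoxb3, Hoxb4, Hoxb5, Hoxb6, Hoxb7, Hoxb8). It was -5.70 to -4.16 in UA+DSS, 0.37 to 3.10 in DSS and 4.11 to 5.06 in DSS+UA. It was 5.53, -3.03 and -1.83 in Con 1, 2 and 3. A gene was called changed at an edgeR adjusted p under 0.05, adjusted over all tested genes by the Benjamini-Hochberg method. Bulk RNA does not separate cells from RNA per cell, so fewer cells of a type and less RNA per cell cannot be told apart.

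The DNA just upstream of the 4 genes whose levels differed most between DSS and Con is shown first, because their promoter windows differ in base composition. Each line gives the 250 bases before the RefSeq start on the gene's own strand (GRCm38.p6), in lower case with GC boxes in capitals. A GC box is GGGCGG, the sequence bound by SP1-type factors, and reads CCGCCC where it lies on the other strand. The windows are Tgfb1 at chr7:25686752-25687001 (plus strand), Inhba at chr13:16011601-16011850 (plus strand), Inhbb at chr1:119422249-119422498 (minus strand) and Acvr1c at chr2:58357759-58358008 (minus strand), whose RefSeq start lies inside the GENCODE gene.
Tgfb1: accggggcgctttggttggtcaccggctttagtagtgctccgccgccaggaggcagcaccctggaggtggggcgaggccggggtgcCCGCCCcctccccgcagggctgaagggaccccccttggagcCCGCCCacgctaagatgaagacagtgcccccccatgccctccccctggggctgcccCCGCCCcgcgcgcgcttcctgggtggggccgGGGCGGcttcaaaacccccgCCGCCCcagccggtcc
Inhba: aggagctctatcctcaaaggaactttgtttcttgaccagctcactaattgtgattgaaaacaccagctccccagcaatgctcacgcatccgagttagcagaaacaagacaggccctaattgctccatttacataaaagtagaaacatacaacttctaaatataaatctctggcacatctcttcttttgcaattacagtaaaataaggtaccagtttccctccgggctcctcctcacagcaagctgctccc
Inhbb: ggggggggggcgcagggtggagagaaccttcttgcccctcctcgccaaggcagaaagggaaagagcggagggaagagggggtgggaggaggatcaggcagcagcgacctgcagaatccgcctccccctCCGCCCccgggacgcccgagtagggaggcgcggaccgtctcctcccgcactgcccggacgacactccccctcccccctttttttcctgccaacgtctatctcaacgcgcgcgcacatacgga
Acvr1c: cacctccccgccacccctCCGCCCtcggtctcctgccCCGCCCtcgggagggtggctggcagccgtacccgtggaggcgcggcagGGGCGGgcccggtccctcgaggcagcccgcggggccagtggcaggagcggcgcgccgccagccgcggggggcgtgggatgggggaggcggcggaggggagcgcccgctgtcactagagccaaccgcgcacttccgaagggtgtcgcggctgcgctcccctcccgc

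The Tgfb1 window held 5 GC boxes and was 75.2% G and C, and that of Acvr1c held 3 and was 79.6% G and C. The Inhba window held none and was 43.2% G and C, while that of Inhbb held 1 and was 68.0% G and C. The ligand genes that rose with DSS thus had windows of unlike composition. RefSeq gave a window for 8 of the 10 genes, and the other GC boxes were 2 in Tgfbr1 and 2 in Rgmb, with none in Tgfb2 or Tgfbr2. The same letters occur in 32.7% of the 32851 windows of this length. The AP-1 motif TGANTCA, found in 6.75% of all windows, was in none of the 8. CAGACA, the core of a SMAD-binding CAGA box and present in 17.1% of all windows, was found once, in Tgfb2, where it overlapped neither other motif. All motifs were read on both strands. No window was given for Tgfb3 or Smad7.

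DSS raised the ligands Tgfb1, Inhba and Inhbb and the receptors Tgfbr1 and Tgfbr2, and lowered the type I receptor Acvr1c and the co-receptor Rgmb. Of the 10 members 5 were raised and 2 lowered in DSS against Con, beside 26.5% of all tested genes (13.9% raised and 12.6% lowered). The libraries of these groups did not overlap for 7 members, beside 41.3% of all tested genes. Early UA (UA+DSS against DSS) lowered 4 members and raised 2, beside 18.7% of all tested genes (10.5% lowered and 8.21% raised), and 8 members did not overlap, beside 42.9%. Late UA (DSS+UA against DSS) lowered 5 and raised none, beside 7.54% of all tested genes (883 lowered and 448 raised), and 8 did not overlap, beside 34.8%. The median log2 fold change of the 10 members was 0.82, -0.58 and -1.12 in these comparisons, and -0.03, -0.02 and 0.02 over all tested genes. The 3 comparisons share the DSS libraries, so a value that happened to be extreme in DSS moves all of them. Because the members were chosen with earlier results known, their counts beside these shares describe them and are no independent test.

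**Figure D1:**
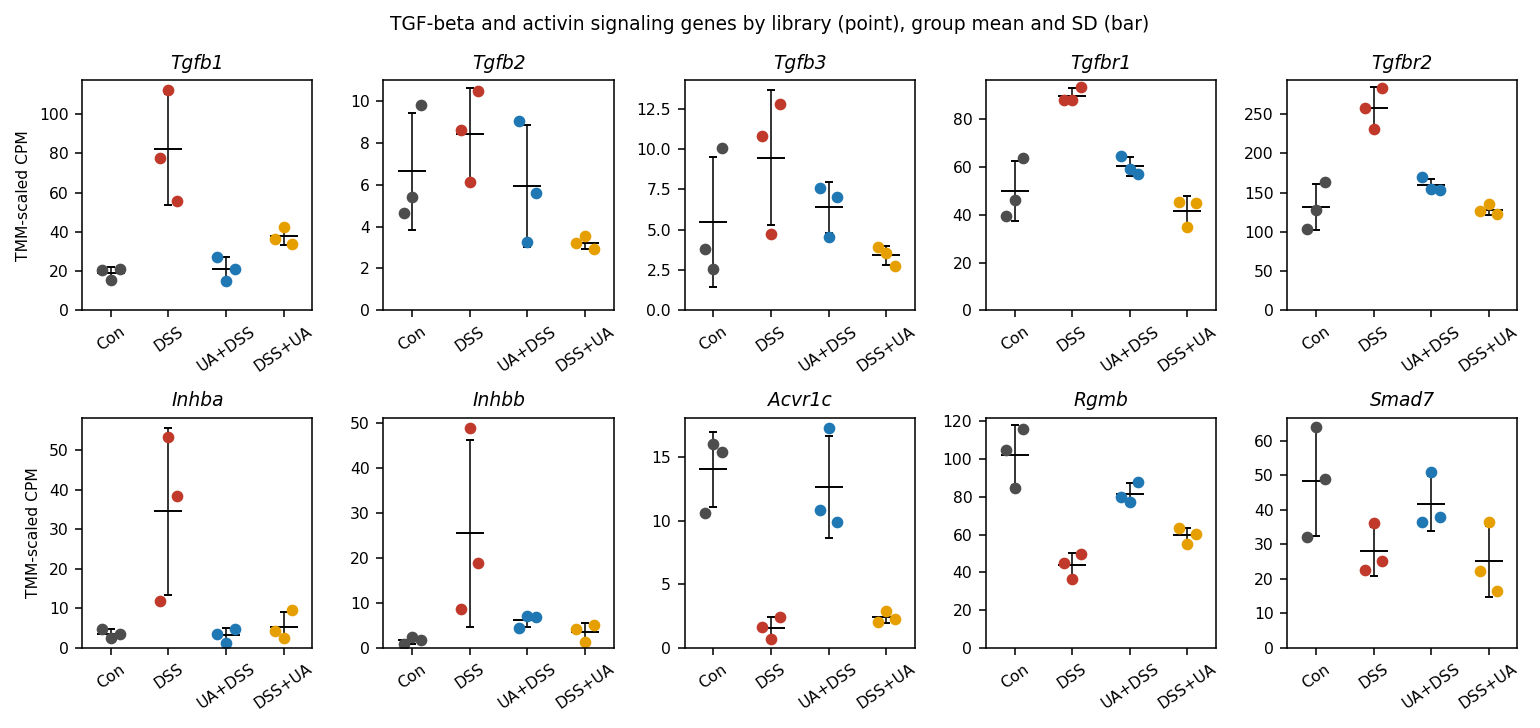
TMM-scaled CPM (vertical axes, each from 0) of the 10 genes in the 12 libraries, with 1 point per library, a dash for the group mean and a bar for the SD (n = 3). The DSS points of Tgfb1, Tgfbr1, Tgfbr2, Inhba and Inhbb lie above every other point of their panel, and those of Rgmb lie below every other point.

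Tgfb1 encodes the TGF-beta isoform made by most immune and stromal cells and lies at chr7:25687002-25705077 (plus strand). Its level was 20.7, 15.5 and 20.9 CPM in Con and 77.8, 112 and 56.0 CPM in DSS. Levels under UA were 27.2, 14.8 and 21.04 CPM for UA+DSS and 36.6, 42.7 and 34.0 CPM for DSS+UA. All DSS libraries were above all others, the DSS+UA libraries formed a step between DSS and the rest, and UA+DSS overlapped Con. Tgfb1 rose 4.33-fold with DSS (log2 fold change 2.11, SE 0.28, adjusted p = 0.00167). It was 3.91-fold lower in UA+DSS than in DSS (log2 fold change -1.97, SE 0.28, adjusted p = 0.00725) and 2.18-fold lower in DSS+UA than in DSS (-1.12, SE 0.27, adjusted p = 0.0366). DSS+UA stayed 1.98-fold above Con (adjusted p = 0.0308), and UA+DSS differed from Con by a log2 fold change of 0.14 (95% interval -0.45 to 0.74, adjusted p = 0.84). The fall of Tgfb1 in DSS+UA was not called without DSS 1 (adjusted p = 0.0531), DSS 2 (0.109), UA+DSS 3 (0.0595), DSS+UA 1 (0.0713), DSS+UA 2 (0.0851) or DSS+UA 3 (0.131), nor with a replicate block (0.0615) or a fit of these groups alone (0.0704). The excess of Tgfb1 in DSS+UA over Con was not called without Con 2, Con 3 or any 1 of the DSS+UA libraries (adjusted p = 0.0616 to 0.0917), nor with the library size alone as scaling (0.0529) or the position score as covariate (0.149).

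Tgfb2 and Tgfb3 encode the other isoforms, which are better known from mesenchyme and epithelium during development. Tgfb2 (chr1:186622792-186705989, minus strand) was at 4.65, 5.43 and 9.83 CPM in Con and 8.63, 6.15 and 10.5 CPM in DSS. With early UA (UA+DSS) the values were 9.04, 3.25 and 5.58 CPM, and with late UA (DSS+UA) 3.21, 3.52 and 2.94 CPM. The Con, DSS and UA+DSS libraries overlapped, and the DSS+UA libraries were low and close together. Neither DSS nor early UA gave a call for Tgfb2 (log2 fold changes 0.35 and -0.51, adjusted p = 0.531 and 0.397). Late UA gave Tgfb2 a log2 fold change against DSS of -1.39 (95% interval -2.27 to -0.50, adjusted p = 0.057), with no overlap between the groups. That difference of Tgfb2 passed the threshold without Con 1 (adjusted p = 0.0499) or Con 3 (0.0497), with DESeq2 (0.00845) and with a filter of at least 10 counts in every library (0.043). DESeq2 also called Tgfb2 lower in DSS+UA than in Con (adjusted p = 0.0483).

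Tgfb3 (chr12:86056745-86079041, minus strand) was at 3.82, 2.55 and 10.1 CPM in Con and 10.8, 4.75 and 12.8 CPM in DSS. Levels under UA were 7.56, 4.56 and 7.01 CPM for UA+DSS and 3.95, 3.52 and 2.77 CPM for DSS+UA. As for Tgfb2, the DSS+UA libraries were low and close together and the others overlapped. edgeR gave no call for Tgfb3 in any comparison, with a log2 fold change of 0.79 in DSS against Con (95% interval -0.30 to 1.88, adjusted p = 0.254) and of -1.47 in DSS+UA against DSS (95% interval -2.59 to -0.36, adjusted p = 0.0864). DESeq2 called the latter (adjusted p = 0.0261). Con 3 held the high Con value, and without it DSS against Con was called (log2 fold change 1.56, adjusted p = 0.0335). The gene overlaps Ttll5 on the opposite strand and shares 8.79% of its stretches of 50 bases with other genes, so its counts are uncertain.

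Per kilobase of exon, Tgfb1 was the most abundant of the isoforms in every group by its mean. Its share of the 3 isoforms was 47.0% to 68.0% in Con, 66.5% to 90.1% in DSS, 57.9% to 60.6% in UA+DSS and 80.8% to 83.7% in DSS+UA. The 3 DSS+UA shares therefore lay above all Con and UA+DSS shares and inside the DSS range. The order of mean levels per kilobase changed with DSS. In Con it was Tgfbr2 (16.1 CPM per kb), Rgmb (13.3), Smad7 (10.7), Tgfbr1 (7.62), Tgfb1 (3.77), Tgfb3 (1.62), Acvr1c (1.51), Tgfb2 (1.15), Inhba (0.561) and Inhbb (0.390). In DSS it was Tgfbr2 (31.5 CPM per kb), Tgfb1 (16.3), Tgfbr1 (13.7), Smad7 (6.17), Inhbb (5.96), Rgmb (5.70), Inhba (5.40), Tgfb3 (2.80), Tgfb2 (1.45) and Acvr1c (0.168). In both orders most neighbours lie within each other's spread.

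**Figure D2:**
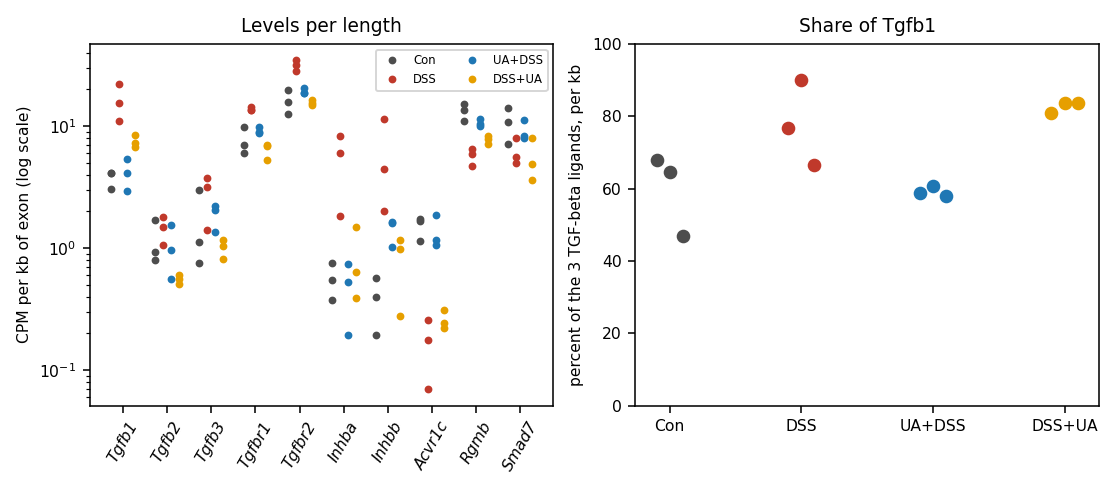
Left, CPM per kilobase of exon (log scale) of the 10 genes in each of the 12 libraries, coloured by group. Right, percent of the 3 TGF-beta isoforms, per kilobase, that was Tgfb1, with 1 point per library; the DSS+UA points lie between 80.8% and 83.7%.

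Inhba encodes the inhibin beta A chain, which forms activin A (chr13:16011851-16031621, plus strand). It was at 4.85, 2.38 and 3.53 CPM in Con and 11.7, 53.3 and 38.4 CPM in DSS. With early UA (UA+DSS) the values were 3.40, 1.25 and 4.78 CPM, and with late UA (DSS+UA) 4.10, 2.47 and 9.47 CPM. Every DSS library was above every other library, but the DSS values spread widely, with DSS 1 near the highest DSS+UA value. Inhba rose 9.62-fold with DSS (log2 fold change 3.27, SE 0.69, adjusted p = 0.00801) and was 11-fold lower in UA+DSS than in DSS (-3.45, SE 0.69, adjusted p = 0.0131). With late UA it was 6.45-fold lower than in DSS (-2.69, SE 0.67, adjusted p = 0.0405). The UA+DSS call of Inhba was lost without UA+DSS 2 (adjusted p = 0.0638). The DSS+UA call was lost without any 1 of DSS 2, DSS 3, the DSS+UA libraries, Con 2, Con 3, UA+DSS 1 or UA+DSS 3 (adjusted p = 0.0523 to 0.131), and with limma-voom (0.0528), a replicate block (0.0561), no filter (0.0798) or a fit of these groups alone (0.095). B230303A05Rik, a pseudogene with 732 counts over all libraries beside 2699 for Inhba, overlaps it on the opposite strand, and whether counting used strand is not given in the sources used here.

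Inhbb encodes the beta B chain of activin B (chr1:119415465-119422248, minus strand). It was at 0.826, 2.44 and 1.71 CPM in Con and 8.54, 48.7 and 18.9 CPM in DSS. Levels under UA were 4.36, 6.99 and 6.91 CPM for UA+DSS and 4.16, 1.17 and 4.93 CPM for DSS+UA. DSS was above all other libraries, and UA+DSS lay between DSS and Con without touching either. Inhbb had the largest rise of the members with DSS, 15.3-fold (log2 fold change 3.94, SE 0.72, adjusted p = 0.00471). With late UA it was 7.41-fold lower than in DSS (-2.89, SE 0.68, adjusted p = 0.0354). For early UA the log2 fold change of -2.06 (SE 0.66) had an adjusted p of 0.0502, which passed the threshold without Con 1 (0.0457), DSS 1 (0.033) or DSS+UA 2 (0.0347), with DESeq2 (0.00756), with library-size or upper-quartile scaling (0.0458 and 0.0477) and with at least 10 counts in every library (0.0438). The DSS+UA call of Inhbb was lost without DSS 2 or any 1 of the UA+DSS or DSS+UA libraries (adjusted p = 0.0539 to 0.106), and with limma-voom (0.059), no filter (0.0614), a replicate block (0.067) or a fit of these groups alone (0.101). Per kilobase, Inhba made up 10.6% to 34.2% of Inhba and Inhbb together in UA+DSS, against 39.4% to 79.6% in Con, 42.1% to 57.6% in DSS and 39.7% to 58.4% in DSS+UA. The UA+DSS shares were below all others.

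Tgfbr1 and Tgfbr2 encode the type I and type II TGF-beta receptors. Tgfbr1 (chr4:47353222-47414931, plus strand) was at 39.6, 46.0 and 63.8 CPM in Con and 88.0, 88.0 and 93.4 CPM in DSS. With early UA (UA+DSS) the values were 64.8, 59.1 and 57.1 CPM, and with late UA (DSS+UA) 45.5, 34.7 and 44.8 CPM. The DSS libraries were high and close together, UA+DSS was just at the top of the Con range, and DSS+UA was in the lower part of that range or below it. Tgfbr1 rose 1.81-fold with DSS (log2 fold change 0.86, SE 0.18, adjusted p = 0.00748) and was 2.16-fold lower in DSS+UA than in DSS (-1.11, SE 0.18, adjusted p = 0.0134). With early UA it was 1.49-fold lower than in DSS (-0.58, SE 0.18, adjusted p = 0.044). That call for Tgfbr1 was lost without any 1 of Con 2, the DSS and UA+DSS libraries, DSS+UA 1 or DSS+UA 3 (adjusted p = 0.0512 to 0.14), with the library size alone as scaling (0.0515) and with no filter (0.0806). The DSS+UA call was lost without DSS+UA 3 (0.0666).

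Tgfbr2 (chr9:116084293-116175360, minus strand) was at 104, 128 and 163 CPM in Con and 258, 231 and 284 CPM in DSS. Levels under UA were 169, 154 and 154 CPM for UA+DSS and 127, 135 and 122 CPM for DSS+UA. DSS stood above all other libraries, and both UA groups overlapped Con. Tgfbr2 rose 1.96-fold with DSS (log2 fold change 0.97, SE 0.17, adjusted p = 0.0041), was 1.62-fold lower in UA+DSS than in DSS (-0.70, SE 0.17, adjusted p = 0.0208) and 2.02-fold lower in DSS+UA than in DSS (-1.01, SE 0.17, adjusted p = 0.0146). The UA+DSS call of Tgfbr2 was lost without DSS 1 (adjusted p = 0.0512), UA+DSS 2 (0.0915) or UA+DSS 3 (0.0684), and the DSS+UA call without DSS+UA 3 (0.0929). Per kilobase, the ratio of Tgfbr2 to Tgfbr1 was 2.04 to 2.23 in Con, 2.10 to 2.43 in DSS, 2.09 to 2.15 in UA+DSS and 2.18 to 3.11 in DSS+UA, so both UA groups overlapped Con and DSS in this ratio but not each other.

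Acvr1c encodes ALK7, a type I receptor for activin B and other ligands that is known best from fat and pancreatic islets (chr2:58267453-58357895, minus strand). It was at 10.6, 16.1 and 15.4 CPM in Con and 1.63, 0.650 and 2.41 CPM in DSS. With early UA (UA+DSS) the values were 10.8, 17.3 and 9.88 CPM, and with late UA (DSS+UA) 2.05, 2.91 and 2.27 CPM. The libraries fell into a high set, Con and UA+DSS, and a low set, DSS and DSS+UA, with a wide gap between them. Acvr1c was 8.92-fold lower in DSS than in Con (log2 fold change -3.16, SE 0.43, adjusted p = 0.00199) and 8.04-fold higher in UA+DSS than in DSS (3.01, SE 0.43, adjusted p = 0.00725). With late UA it was 5.83-fold lower than in Con (-2.54, SE 0.42, adjusted p = 0.00556) and differed from DSS by 0.62 (95% interval -0.30 to 1.53, adjusted p = 0.346). It was the only member that edgeR called between the UA schedules, 5.25-fold lower in DSS+UA than in UA+DSS (-2.39, SE 0.42, adjusted p = 0.00798), beside 16.8% of all tested genes (7.54% lowered and 9.23% raised). The libraries of these groups did not overlap for 6 members, beside 45.3% of all tested genes. DESeq2 called 4 members there, Acvr1c, Rgmb (adjusted p = 0.0375) and Tgfbr1 (0.0361) lowered and Tgfb1 (0.0273) raised. The share of all tested genes that DESeq2 called is not given here, so its counts stand without that share. These Acvr1c calls held without any 1 library. The lowest count was 13, in DSS 2. Of 6 adipocyte markers tested, edgeR and limma-voom called none in any comparison. DESeq2 called 2 in DSS+UA against DSS and 1 between the UA schedules, and 0 to 3 per comparison had an unadjusted p under 0.05. All 7 listed markers summed to 67.1 to 102 CPM in Con, 93.6 to 261 CPM in DSS, 79.2 to 215 CPM in UA+DSS and 49.1 to 90.7 CPM in DSS+UA. Summed markers of squamous epithelium, neutrophils and inflammatory monocytes split the libraries as Acvr1c did, but were high where it was low. Those of squamous epithelium were 0.942 to 2.12 CPM in Con and 0.936 to 2.39 CPM in UA+DSS. They were 13.7 to 57.5 CPM in DSS and 9.03 to 33.2 CPM in DSS+UA. The part of these cells in the Acvr1c levels was not tested.

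**Figure D3:**
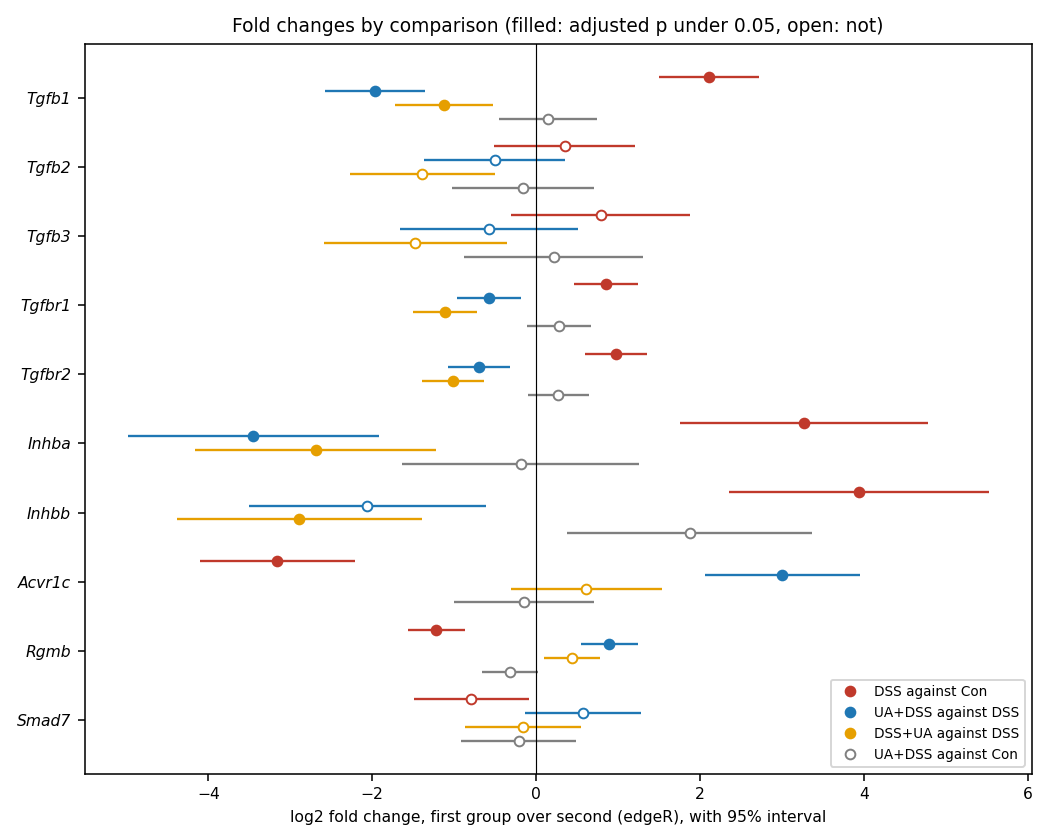
log2 fold change of each gene (edgeR, first group over second) with its 95% interval in 4 comparisons; filled points have an adjusted p under 0.05. In DSS against Con 7 points are filled and in UA+DSS against Con none, and the Acvr1c points lie at -3.16, 3.01, 0.62 and -0.15.

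Rgmb encodes a GPI-anchored co-receptor of the BMP branch that binds neogenin (chr17:15803188-15831039, minus strand). It was at 105, 84.7 and 116 CPM in Con and 45.1, 36.5 and 49.6 CPM in DSS. Levels under UA were 79.9, 77.3 and 87.8 CPM for UA+DSS and 63.2, 55.1 and 60.2 CPM for DSS+UA. The groups stepped down from Con through UA+DSS and DSS+UA to DSS, and only Con and UA+DSS overlapped. Rgmb was 2.32-fold lower in DSS than in Con (log2 fold change -1.22, SE 0.16, adjusted p = 0.00159) and 1.86-fold higher in UA+DSS than in DSS (0.90, SE 0.16, adjusted p = 0.00998). Its log2 fold change in DSS+UA against DSS was 0.44 (95% interval 0.09 to 0.78, adjusted p = 0.0947), and DSS+UA was below Con (-0.78, SE 0.16, adjusted p = 0.0106). The called differences of Rgmb held without any 1 library. Between DSS+UA and UA+DSS the log2 fold change of -0.46 had an adjusted p of 0.0667, and 0.0491 without DSS 2, 0.0334 with a replicate block, 0.028 in a fit of these groups alone and 0.0493 with at least 10 counts in every library.

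Smad7 encodes the inhibitory SMAD, which is itself induced by TGF-beta signaling (chr18:75367529-75395935, plus strand). It was at 32.1, 63.8 and 49.0 CPM in Con and 22.5, 36.0 and 25.1 CPM in DSS. With early UA (UA+DSS) the values were 36.4, 50.9 and 37.8 CPM, and with late UA (DSS+UA) 22.4, 36.4 and 16.4 CPM. The groups overlapped except for UA+DSS and DSS, where the lowest and highest values nearly met. edgeR gave no call for Smad7 in any comparison. The closest were DSS+UA against Con (log2 fold change -0.95, 95% interval -1.66 to -0.24, adjusted p = 0.0624) and DSS against Con (-0.79, 95% interval -1.49 to -0.08, adjusted p = 0.0903). Both passed the threshold without Con 1 (adjusted p = 0.0338 and 0.0478), and the first also without DSS+UA 2 (0.031), with DESeq2 (0.0347) and with library-size or upper-quartile scaling (0.0392 and 0.0475). With a replicate block Smad7 was called in both (0.0158 and 0.0212) and in DSS+UA against UA+DSS (0.0278).

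Between UA+DSS and Con edgeR called none of the 10 members, beside 0.00566% of all tested genes, and neither did DESeq2 or limma-voom. At an unadjusted p under 0.05 there was 1 member, Inhbb, 3.67-fold higher in UA+DSS (log2 fold change 1.88, 95% interval 0.38 to 3.37, adjusted p = 0.338). Its libraries did not overlap, which held for 20.6% of all tested genes in this comparison. The intervals of the other members still allow differences, from -1.01 to 0.71 for Acvr1c and from -1.63 to 1.26 for Inhba on the log2 scale. Against Con, DSS+UA gave 3 called members, Tgfb1 raised and Acvr1c and Rgmb lowered, beside 18.1% of all tested genes (9.13% raised and 8.95% lowered). For 4 members the libraries of DSS+UA and Con did not overlap, beside 39.0% of all tested genes.

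The 73 other genes listed for the pathway, of which 68 were tested, include the machinery that stores, binds and reads the ligands. In DSS against Con 27 were raised and 2 lowered, beside 13.9% raised and 12.6% lowered of all tested genes. Their median log2 fold change was 0.53. A count by role that lies near these shares, as for the BMP and other ligands, is no result about that role. The list was chosen with earlier results of these data known. A count above these shares, here and in the UA comparisons below, describes the listed genes and is no independent test of the pathway. Of 11 genes that store or activate latent TGF-beta 9 rose. Those with the smallest p were Nrros, which tethers latent TGF-beta on macrophages and microglia (2.26 on the log2 scale, adjusted p = 0.00306), and Ltbp3, a latent TGF-beta binding protein (1.32, adjusted p = 0.00392). Of 12 other receptors 4 rose, among them the co-receptors Tgfbr3 (betaglycan, 1.92, adjusted p = 0.00332) and Eng (endoglin, 1.48, adjusted p = 0.0047). The 1 that fell was Neo1, which encodes neogenin (-0.71, adjusted p = 0.0451), named after its values were seen. Of 11 extracellular inhibitors 6 rose, such as the decorin gene Dcn (1.94, adjusted p = 0.00392) and the BMP antagonist Chrd (1.77, adjusted p = 0.00655). Of 9 BMP and other ligands 2 rose, Bmp7 (1.39, adjusted p = 0.00371) and Gdf11 (1.37, adjusted p = 0.0153).

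Of 10 genes known as targets of the pathway 5 rose with DSS. Among them the matrix gene Tgfbi went from 70.0 to 90.5 CPM in Con to 214 to 795 CPM in DSS (2.38 on the log2 scale, adjusted p = 0.00646). Inside the cell, 1 of 7 Smads was called, Smad1, which carries BMP signals and fell (-0.61, adjusted p = 0.0265). Of 8 intracellular repressors 1, Pmepa1, was called and rose (1.54, adjusted p = 0.00599). Over all tested genes 26.5% were called, so these 2 counts do not set the Smads or repressors apart. Without Con 2, 17 of the 68 genes were called in place of 29, and the count over all tested genes in that refit is not given here.

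Early UA lowered 23 of the 68 genes against DSS and raised 2, beside 10.5% lowered and 8.21% raised of all tested genes. Their median log2 fold change was -0.77. The position score split UA+DSS from DSS completely, and with it as a covariate 0 of the 68 were called. The lowered genes included Thbs1, a matrix protein that releases active TGF-beta, which was at 383 to 1377 CPM in DSS and 74.0 to 119 CPM in UA+DSS (-3.01 on the log2 scale, adjusted p = 0.0121). Nrros (-1.91, adjusted p = 0.0112), Eng (-1.52, adjusted p = 0.0101), Tgfbr3 (-1.29, adjusted p = 0.02) and Dcn (-1.91, adjusted p = 0.00998) fell as well. Further falls by the same naming rule were Bmp7 (-1.19, adjusted p = 0.0127), the WNT and BMP antagonist Sostdc1 (-1.88, adjusted p = 0.012), Pmepa1 (-1.53, adjusted p = 0.0124) and the fibronectin receptor gene Itga5 (-1.84, adjusted p = 0.019). Bmp3, a ligand that opposes other BMPs, rose from 13.5 to 27.4 CPM to 65.0 to 147 CPM (2.38, adjusted p = 0.0148). The other raised gene was the activin type II receptor gene Acvr2b (1.18, adjusted p = 0.0224), named after its values were seen. No Smad was called by edgeR, DESeq2 or limma-voom, with 2 at an unadjusted p under 0.05. The 25 calls became 0 without UA+DSS 2, 13 without UA+DSS 1, 14 without DSS 2 and 16 without UA+DSS 3. Calls over all tested genes in these refits are not given here, so the losses cannot be read as particular to these genes.

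Late UA lowered 20 of the 68 genes against DSS and raised none by edgeR (34 and 1 by DESeq2), with a median log2 fold change of -1.01. Over all tested genes edgeR called 7.54% there (883 lowered and 448 raised). The share that DESeq2 called is not given here, so its counts in this paragraph stand without it. The position score split DSS+UA from DSS completely too, and with it as a covariate 4 of the 68 were called. Ltbp1 (-1.31 on the log2 scale, adjusted p = 0.00866) and Ltbp3 (-1.34, adjusted p = 0.0147) fell, as did Eng (-1.60, adjusted p = 0.0146), Tgfbr3 (-1.63, adjusted p = 0.0208), Bmp7 (-1.15, adjusted p = 0.0252) and Dcn (-1.65, adjusted p = 0.0247). Fst, which encodes the activin-binding inhibitor follistatin, was at 0.878 to 3.10 CPM in Con, 7.19 to 12.4 CPM in DSS, 5.99 to 6.99 CPM in UA+DSS and 0.742 to 2.10 CPM in DSS+UA. Its fall in DSS+UA was called (-3.03, adjusted p = 0.0134), while UA+DSS against DSS gave -0.67 (adjusted p = 0.34). The target genes Fn1 (fibronectin, -1.58, adjusted p = 0.0432) and Itga5 (-1.88, adjusted p = 0.0333) fell. No Smad or intracellular repressor was called by edgeR or limma-voom. DESeq2 called 1 of each, and each list had 3 genes at an unadjusted p under 0.05. The 20 calls became 0 without DSS+UA 3, 2 without DSS+UA 2, 10 without DSS 2 or DSS+UA 1, 11 without UA+DSS 1 and 12 without UA+DSS 3. Again, calls over all tested genes in these refits are not given here. Between UA+DSS and Con edgeR (0.00566% of all tested genes called) and limma-voom called none of the 68. DESeq2 called 2, and 6 had an unadjusted p under 0.05.

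**Figure D4:**
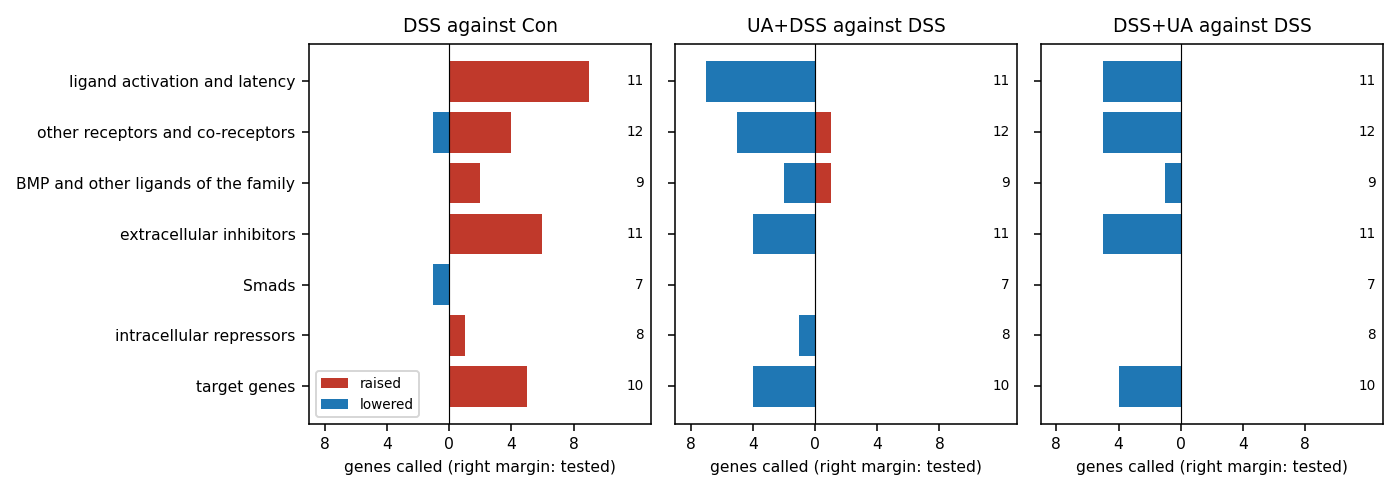
Number of listed pathway genes raised (to the right) or lowered (to the left) by role in 3 comparisons, with the number tested in the right margin. In DSS against Con 9 of 11 latency genes are raised, and 1 of 7 Smads is lowered, beside 13.9% raised and 12.6% lowered of all tested genes.

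Markers of several other cell types moved with these genes, though not in every comparison. The marker lists too were chosen with earlier results of these data known. Marker counts stand beside 13.9% raised and 12.6% lowered of all tested genes with DSS. The shares were 10.5% lowered and 8.21% raised with early UA, and 7.54% called with late UA. All of these are edgeR shares, and those of DESeq2 and limma-voom are not given here. In DSS against Con 6 of 8 fibroblast markers rose, and their sum went from 1228 to 1987 CPM in Con to 3450 to 7100 CPM in DSS. Dcn and Col1a1 are on that list and on the pathway lists. Of 7 macrophage markers 6 rose (76.4 to 227 CPM against 514 to 1209 CPM), of 5 inflammatory monocyte markers 4, of 7 neutrophil markers 6 (9.25 to 114 CPM against 884 to 17907 CPM) and of 7 T cell markers 5. DESeq2 and limma-voom called 2 and 4 of these neutrophil markers, and 7 and 2 of the T cell markers. In both UA groups against DSS, neither edgeR, DESeq2 nor limma-voom called a T cell marker, and none had an unadjusted p under 0.05. Of 8 colonocyte markers 1 fell (8674 to 18417 CPM against 4404 to 9523 CPM). Of 6 endothelial markers, a type in which Eng is known to be high, 2 rose (133 to 179 CPM against 207 to 333 CPM). With early UA 5 fibroblast, 4 macrophage, 5 monocyte, 7 neutrophil and 4 endothelial markers fell and 2 colonocyte markers rose. DESeq2 and limma-voom called 2 and 3 of the neutrophil markers there, and 5 and 3 of the endothelial ones (103 to 124 CPM in UA+DSS). With late UA 3 fibroblast, 1 macrophage, 1 monocyte and 5 endothelial markers fell (endothelial sum 82.8 to 88.9 CPM in DSS+UA), and 1 colonocyte marker rose. DESeq2 called 6 fibroblast and 4 macrophage markers there and limma-voom 3 and 1, and 7 and 4 had an unadjusted p under 0.05. The neutrophil sum in DSS+UA was 398 to 1013 CPM, and none of its 7 markers was called against DSS by edgeR or limma-voom. DESeq2 called 1, and 6 had an unadjusted p under 0.05. Smooth muscle markers summed to 1170 to 3749 CPM in Con, 735 to 1544 CPM in DSS, 1239 to 2594 CPM in UA+DSS and 479 to 922 CPM in DSS+UA. Con 3, the highest Con library for Tgfb2 and Tgfb3, held the 3749 CPM. Of 7 such markers edgeR called 3 lowered in DSS+UA against Con and 3 against UA+DSS, and none with DSS or against DSS. The part of all these cells in the changes of the members was not tested.

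The position score separated UA+DSS, DSS and DSS+UA from each other without overlap. Within groups it varied most in Con (SD 4.63), against 1.38 in DSS, 0.771 in UA+DSS and 0.477 in DSS+UA. In Con the score was 5.53 for Con 1, and -3.03 and -1.83 for Con 2 and Con 3. The covariate therefore rests largely on Con 1, and a call kept with it says little about position. With the score as a covariate the number of calls in DSS against Con was again 7, with Tgfb1 at 2.06 (SE 0.30), Inhbb at 4.27 (SE 0.72) and Acvr1c at -3.02 (SE 0.41) on the log2 scale. How many of all tested genes were called with the covariate is not given here, so the member counts stand without that share. For UA+DSS against DSS the calls went from 6 to 0, and those among the 68 pathway genes from 25 to 0. The log2 fold changes there were -1.71 (SE 0.43, adjusted p = 0.105) for Tgfb1, -2.94 (SE 1.01, adjusted p = 0.16) for Inhba, -3.20 (SE 1.00, adjusted p = 0.139) for Inhbb, -0.90 (SE 0.25, adjusted p = 0.119) for Tgfbr1, -1.04 (SE 0.22, adjusted p = 0.093) for Tgfbr2, 2.44 (SE 0.57, adjusted p = 0.1) for Acvr1c and 0.98 (SE 0.24, adjusted p = 0.105) for Rgmb. The directions of these 7 were as without the covariate, and their standard errors were larger. For DSS+UA against DSS Tgfbr1 (-0.97, SE 0.18, adjusted p = 0.0403) and Tgfbr2 (-0.86, SE 0.16, adjusted p = 0.0413) were still called and Tgfb1 (-1.24, adjusted p = 0.0667), Inhba (-3.00, adjusted p = 0.0729) and Inhbb (-2.29, adjusted p = 0.0981) were not. Between the UA schedules Acvr1c was at -1.56 (SE 0.72, adjusted p = 0.4). In these UA comparisons position and group are the same split of the libraries, so they cannot be told apart.

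**Figure D5:**
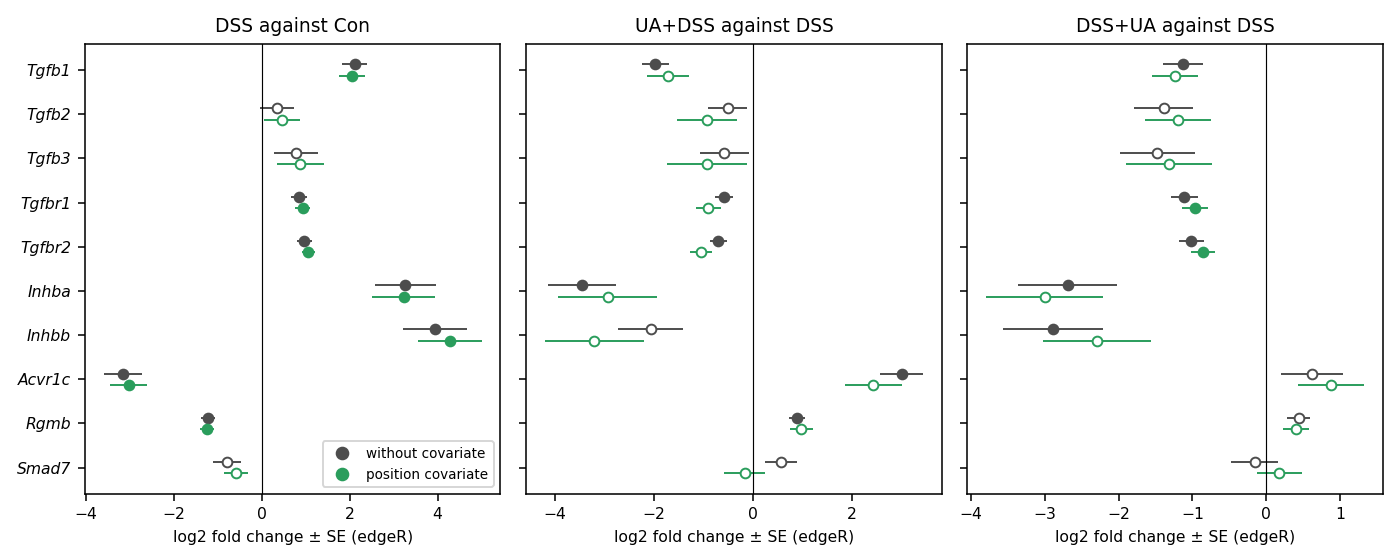
log2 fold change and SE of each gene (edgeR) without and with the position score as a covariate, in 3 comparisons; filled points have an adjusted p under 0.05. With the covariate 7 points are filled in DSS against Con, 0 in UA+DSS against DSS and 2 in DSS+UA against DSS.

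By log2 CPM over the 12 libraries, the genes most like each member among 12744 protein-coding genes differed from member to member. For Tgfb1 they were Cfp (properdin, r = 0.98), Crem (r = 0.98) and Nrros (r = 0.97), the last of which is on the latency list. For Tgfb2 they were Nrp1, Dlc1 and Dpysl3 (r = 0.91 to 0.93), and for Tgfb3 Kcnn3, Adcyap1r1 and Ttc28 (r = 0.95 to 0.97). For Inhba they were Ptgs2, the inducible cyclooxygenase (r = 0.96), P3h1 (r = 0.96) and Sulf1 (r = 0.95), and for Inhbb Sema7a, Chst11 and Nfil3 (r = 0.93 to 0.96). For Tgfbr1 they were Sema3g (r = 0.98), Cic (r = 0.96) and Fam219a (r = 0.96), and for Tgfbr2 Stc1, Antxr1 and Tenm3 (r = 0.97). For Acvr1c they included Retsat (r = 0.98) and Trim2 (r = 0.98). For Rgmb they were Wdr13, Agbl5 and Ugt2b35 (r = 0.94 to 0.95), and for Smad7 Mxi1, Tppp3 and Pkd2l2 (r = 0.91 to 0.92). These r values describe libraries that share the group differences, the position score and the cell markers given above.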

How the data were processed

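Colonic RNA of 12 mice, 3 per group, was sequenced on Illumina instruments. The methods name the RNeasy kit and the labels Trizol. The authors mapped reads to GRCm38 and took gene counts with HISAT2. The submitters' processing notes also name FastQC and Cuffdiff. The deposited files hold raw counts, whole numbers for each Ensembl gene. The sources used here do not give tool versions, annotation release, strand use or the treatment of multi-mapping reads.

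Groups and replicate numbers came from the labels. GENCODE names matched 54495 of 54532 genes, and the 37 without a name held 0.00364% of the counts. edgeR 4.0.16 (R 4.3.3) kept 17658 genes by filterByExpr (99.8% of counts), applied TMM factors and fitted all libraries in 1 quasi-likelihood model with robust dispersions (biological coefficient of variation 0.352). Tests were two-sided, and p-values were adjusted (Benjamini-Hochberg) across the tested genes with 0.05 as threshold. The fit was tested on simulated data. CPM per kilobase used the union of annotated exons. Alternatives were DESeq2 1.42.0, limma-voom (limma 3.58.1), other scaling, other filters, a 2-group fit, a replicate block, a position covariate and leaving out each library. Python 3.11.15 with pandas 2.3.3 and matplotlib 3.10.9 made summaries and figures.

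The 10 genes, the 73 pathway genes and the marker lists were chosen with earlier results of these data known. Of each role, up to 2 called genes with the smallest p, groups not overlapping and a mean log2 CPM of at least 1 are named in each comparison with DSS. Values of other pathway genes, Fst in UA+DSS among them, are given only for genes that the rule named elsewhere. Neo1 and Acvr2b were named after their values were seen. The 3 genes most like each member are those with the highest Pearson r of log2 CPM (prior count 2). Some genes that these rules name are not reported here. Position genes and markers are the listed ones. A role of a gene is background knowledge. Promoters are from RefSeq tables of GRCm38.p6.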

Additional observations from a re-analysis of the deposited data

Results flagged for a closer look

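Acvr1c, the gene of the type I receptor ALK7, differed between the groups of the 2 UA schedules, set against the same DSS libraries. Its log2 fold change against DSS was 3.01 (SE 0.43) in UA+DSS and 0.62 (SE 0.42) in DSS+UA, and the difference between these effects, which is DSS+UA against UA+DSS, was -2.39 (SE 0.42, edgeR adjusted p = 0.00798). The 3 UA+DSS libraries were at 10.8, 17.3 and 9.88 CPM and the 3 DSS+UA libraries at 2.05, 2.91 and 2.27 CPM, with no overlap. Of all tested genes edgeR called 16.8% between these groups, and 45.3% did not overlap. For Acvr1c the alternatives were as follows. Over all alternatives the adjusted p was 3.7e-07 to 0.4, and it passed the threshold in every one except with the position covariate (-1.56, SE 0.72, adjusted p = 0.4). The position score was -5.70 to -4.16 in the UA+DSS libraries and 4.11 to 5.06 in the DSS+UA libraries. Position, length of UA and start of UA cannot be told apart between these groups.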

How the results depend on the processing

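Each comparison was repeated under 9 alternatives and without each of 12 libraries. The 7 members called in DSS against Con stayed between 7 and 8 in number. Counts of called members without 1 library were 3 to 7 in UA+DSS against DSS, 0 to 6 in DSS+UA against DSS, 0 in UA+DSS against Con, 2 to 4 in DSS+UA against Con and 1 to 3 in DSS+UA against UA+DSS. For the pathway list they were 17 to 28 in DSS against Con, 0 to 28 in UA+DSS against DSS and 0 to 20 in DSS+UA against DSS. How many of all tested genes were called in each refit is not given here. A loss of calls is therefore not shown to be particular to the members or the pathway list. Changes under other settings were as follows. For UA+DSS against DSS the position covariate left 0 members and 0 pathway genes. Late UA against DSS went from 5 members to 3 with no filter or limma-voom and 2 with a 2-group fit or the position covariate, against 6 with at least 10 counts in every sample and 7 with DESeq2, and 20 pathway genes became 4 with the covariate, 7 with a 2-group fit and 35 with DESeq2. For DSS+UA against Con 3 members became 5 with DESeq2. For DSS+UA against UA+DSS 1 member became 2 with upper-quartile factors or no filter, 3 with at least 10 counts in every sample, 4 with a 2-group fit or DESeq2 and 0 with the covariate. The cause of these shifts was not tested, except that leaving out libraries or groups leaves fewer samples for the spread. The library size alone as scaling factor moved the median of all genes by -0.13 in DSS+UA against DSS and turned no direction, but ended the calls of Tgfbr1 in UA+DSS against DSS and Tgfb1 in DSS+UA against Con. The mean CPM of Tgfbr1 in DSS moved by more than 1 SD under it.

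No called member turned its direction. Uncalled log2 fold changes that turned sign with the position covariate were Smad7 in UA+DSS against DSS (-0.17) and late UA against DSS (0.17), Tgfb3 (-0.045) and Inhba (0.29) in UA+DSS against Con, Tgfbr2 in DSS+UA against Con (0.20), and Tgfbr2 (0.18), Inhba (-0.068), Inhbb (0.91) and Smad7 (0.34) in DSS+UA against UA+DSS. The remaining sign changes came from leaving out 1 library. The ranges were -0.57 to 0.086 for Smad7 in DSS+UA against DSS. For UA+DSS against Con they were -0.080 to 0.35 for Tgfb1, -0.58 to 0.23 for Tgfb2, -0.12 to 0.99 for Tgfb3, -0.64 to 0.20 for Inhba, -0.44 to 0.0019 for Acvr1c and -0.44 to 0.046 for Smad7. For DSS+UA against Con they were -1.02 to 0.10 for Tgfb3, -0.18 to 0.15 for Tgfbr2 and -0.11 to 0.92 for Inhba.

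Replicate numbers did not pair the libraries: deviations from the group means correlated at -0.22 to 0.19 in 18 same-numbered pairs and at -0.29 to 0.24 in 36 others. With the number as a replicate block 8 members were called in DSS against Con, 2 (and 13 pathway genes) for late UA against DSS and 3 between the UA schedules.

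Depth limits Acvr1c in DSS and Inhba and Inhbb outside DSS most, whose lowest counts were 13, 20 and 16.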
